A study of Mus musculus with 6 samples.

Results

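The Speer4 genes Speer4a, Speer4b, Speer4c, Speer4d, Speer4e and Speer4f1 were followed through single-cell RNA-seq of mouse testis. They were chosen by gene symbol, 6 of the 30905 genes in the count matrices, because earlier results of these data had shown where they are expressed and how they relate to the percent of mitochondrially encoded (mt-) transcripts. Stage of expression and the mt- relation are therefore given below as descriptions without a test.

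The series compared testes of ICR mice, an outbred stock, after passive exposure to cigarette smoke (3 libraries) with testes of unexposed ICR mice (3 libraries). Per the labels, male mice bought at 6 weeks of age were adapted for 1 week. The smoking group then spent 30 minutes a day for 12 weeks in a chamber with the smoke of 15 cigarettes per session, each with 1.1 mg nicotine and 11 mg tar, at 3.47 mg/m3 of smoke. The control group was placed in a chamber without smoke. Both groups carry the age label of 8 weeks, which differs from that schedule. Each group held 7 mice, and the labels do not tie the libraries to mice, so p-values measure the spread between these libraries, which may be technical. Cells were depleted of dead cells and captured with 10x Genomics 3′ chemistry, in which a unique molecular identifier (UMI) marks each captured RNA molecule.

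Retained barcodes numbered 7704 to 8638 per smoking library and 7702 to 7990 per control library, with 47782302 to 68617395 UMIs in smoking libraries and 35104559 to 47839170 in control libraries. In all, 47931 of 54253 deposited barcodes were retained, and any pair of libraries had 16 to 34 barcode strings in common. Elongating-spermatid-like barcodes held 28.5%, 30.2% and 39.6% of the UMIs of the smoking libraries, against 12.4%, 10.1% and 25.8% of those of the control libraries. Testis markers were present, with the 12 elongating spermatid markers summing to 1364 UMIs per 10000 UMIs over all barcodes, the 12 round spermatid markers to 33.0 and the 16 spermatocyte markers to 30.1. Of the retained barcodes, 54.3% lay in clusters that the marker rule left unnamed.

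Speer stands for spermatogenesis-associated glutamate-rich protein. The family is a rodent-specific set of duplicated genes known for expression in haploid male germ cells, and its members arose by repeated copying, so that they remain close in sequence. Spermatids are the haploid cells that follow meiosis: round spermatids transcribe actively, and elongating spermatids condense their chromatin around protamines and fall silent.

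All 6 genes lie on chromosome 5, in 12.6 Mb of the mm10 (GRCm38) assembly, 2 on the plus strand and 4 on the minus strand. Each is annotated as protein coding with 5 exons. Speer4e lies at chr5:14933221-14938429 on the minus strand and Speer4d at chr5:15619064-15623864 on the plus strand. Speer4c, at chr5:15709501-15714271 on the minus strand, is overlapped by the antisense gene Speer4cos. Speer4f1 lies at chr5:17476098-17480936 on the plus strand, within 100 kb of a further family gene, Speer4f2. Speer4a is at chr5:26032846-26039558 on the minus strand with 13 annotated genes within 100 kb, and Speer4b is at chr5:27495639-27501438 on the minus strand, overlapping Dpp6 on the opposite strand. Alignment of the longest annotated transcripts gave 87.4% to 98.5% identity of the aligned bases over the 15 pairs, with the highest for Speer4c and Speer4d.

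**Figure D1:**
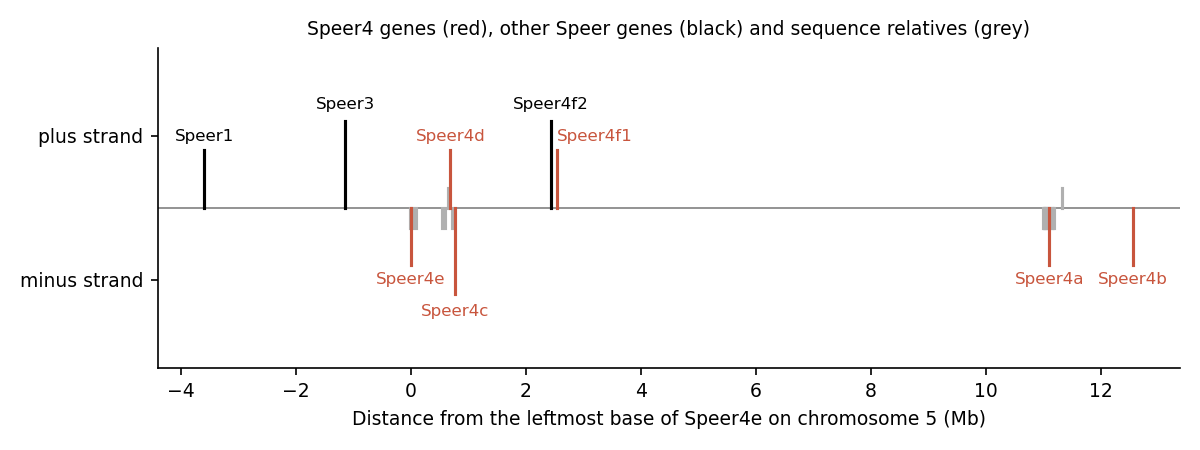
Position of the Speer4 genes (red), other protein-coding Speer genes (black) and genes related to them in transcript sequence (grey) on chromosome 5, as distance in Mb from the leftmost base of Speer4e, with plus-strand genes above and minus-strand genes below the line. The Speer4 genes span 12.6 Mb, and the relatives lie beside Speer4e, Speer4d, Speer4c and Speer4a; line height has no meaning.

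The stretch of promoter that the 6 genes share is printed here because it carries an 8-base motif, TGATGTCA or its reverse complement, in every one of them. Sequences are from RefSeq, build GRCm38.p6, written 5′ to 3′ on each gene's own strand, and capitals mark exact copies of the motif. The stretches lie at chr5:14938463-14938544 (minus strand, Speer4e), chr5:15618995-15619076 (plus strand, Speer4d), chr5:15714259-15714340 (minus strand, Speer4c), chr5:17475997-17476070 (plus strand, Speer4f1), chr5:26039540-26039621 (minus strand, Speer4a) and chr5:27501424-27501505 (minus strand, Speer4b). Positions relative to a start are counted from the RefSeq transcript start, which is not always the gene boundary given above; by it, the stretches of Speer4e and Speer4c reach 13 bases past the start and the other 4 end before it.
Speer4e: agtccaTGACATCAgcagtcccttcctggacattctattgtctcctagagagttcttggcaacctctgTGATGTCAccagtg
Speer4d: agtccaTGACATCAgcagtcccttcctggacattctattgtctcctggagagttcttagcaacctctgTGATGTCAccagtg
Speer4c: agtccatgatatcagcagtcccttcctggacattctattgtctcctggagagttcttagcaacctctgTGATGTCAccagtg
Speer4f1: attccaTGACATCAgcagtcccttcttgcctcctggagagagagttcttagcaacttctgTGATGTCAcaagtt
Speer4a: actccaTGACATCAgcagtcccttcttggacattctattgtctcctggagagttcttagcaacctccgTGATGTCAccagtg
Speer4b: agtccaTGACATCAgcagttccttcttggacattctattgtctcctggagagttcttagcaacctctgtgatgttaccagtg

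The pair of copies was intact in 4 of the 6 genes, 54 bases apart in Speer4e, Speer4d and Speer4a and 46 bases apart in Speer4f1. Speer4c differed from the motif by 1 mismatch at the upstream copy, and Speer4b by 1 mismatch at the downstream copy. The motif was not particular to these 6 genes. Among the other Speer genes, Speer4f2 and a promoter of Speer1 held 2 copies each, and Speer3 held 1. Another promoter of Speer1 and that of Speer2 held 0. Over the promoters of 27025 genes, each 300 bases long (250 before and 50 after the start), 4.18% held the motif on either strand and 0.252% held at least 2 copies; the motif was picked after the sequences had been seen, and the promoters are copies of each other. Neither the TATA motif TATAAA nor the cAMP-response core TGACG was found in any of the 6 windows, on either strand, against 15.7% and 23.0% of all promoters.

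Because the genes are so alike, how well they can be counted apart differs. In the last 500 bases of the transcript, where a 3′ library is read, the share of 90-base windows that occur in no other annotated transcript was 100% for Speer4e, 94.4% for Speer4b, 89.8% for Speer4a and 73.7% for Speer4f1. It was 45.5% for Speer4d and 22.6% for Speer4c, so counts of these 2 genes are uncertain where reads fit both or a relative. Besides the family genes, 18 measured genes, nearly all with a Gm name, matched a Speer4 transcript at 80% identity or more over at least 40% of its length, and all lie on chromosome 5. Splitting between these copies depends on the authors' counting, which is not described further in the sources used here.

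Over the retained barcodes the 6 genes gave 23543 UMIs. Speer4e gave the most, 8692, followed by Speer4f1 with 3977, Speer4b with 3861, Speer4c with 3262, Speer4a with 2135 and Speer4d with 1616. Levels are given as UMIs per 10000 UMIs of the same barcodes and are not divided by transcript length, since the assay counts transcript ends. Speer4e made up 37.8%, 37.1% and 38.3% of the family's UMIs in the smoking libraries and 32.8%, 38.0% and 36.8% in the control libraries. Each gene was detected in every library, from 218 UMIs (Speer4d, smoking 1) to 1764 UMIs (Speer4e, smoking 3).

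The family was high in a small part of the barcodes. The cells fell into 32 clusters, formed without using Speer or mt- genes but with 8 of the sequence relatives among the variable genes. Of these clusters, 5 held more than 1 family UMI per 10000. Cluster 2 stood highest at 9.38, ahead of cluster 7 at 4.53, cluster 14 at 3.87, cluster 10 at 1.71 and cluster 13 at 1.44. The other 27 clusters were all below, at 0.0432 to 0.707, and the median over all clusters was 0.297. Clusters 2, 7 and 14 together held 62.4% of the family's UMIs in 14.6% of the barcodes. Cluster 2 alone held 36.4% of the family's UMIs in 3053 barcodes. When the relatives were also left out of the variable genes, the highest cluster held 26.2% in 2170 barcodes, at 9.87 family UMIs per 10000.

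Clusters 7 and 13 met the marker rule for round-spermatid-like cells, and clusters 2, 14 and 10 stayed unnamed. Clusters 8 and 20 met the same rule but held only 0.372 and 0.684 family UMIs per 10000. As a share of UMIs, the family was thus not high in all round-spermatid-like cells. Cluster 20, with a median of 33306 UMIs per barcode, still held 12.7% of the family's UMIs in 1.85% of the barcodes, beside 15.0% of all UMIs. Its median was 2 family UMIs per barcode, as in cluster 2. Cluster 2 held 3053 barcodes with a median of 2731 UMIs and a median mt- share of 8.92%. Its 10 leading genes were themselves Speer4e, Speer4c, Speer4d and genes with Gm names that include sequence relatives, and none was a marker of a cell type. Its round spermatid markers summed to 31.9 UMIs per 10000, against 100.1 in cluster 7 and 33.0 over all barcodes. Its spermatocyte markers summed to 25.3 (30.1 over all barcodes), its elongating spermatid markers to 773 (1364) and its Sertoli markers to 1.19 (8.88). Cluster 7 held 2374 barcodes with a median mt- share of 0.863%, and cluster 14 held 1561 barcodes with one of 0.134%. The genes Speer4f1 and Speer4f2 were among the 10 leading genes of cluster 14.

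**Figure D2:**
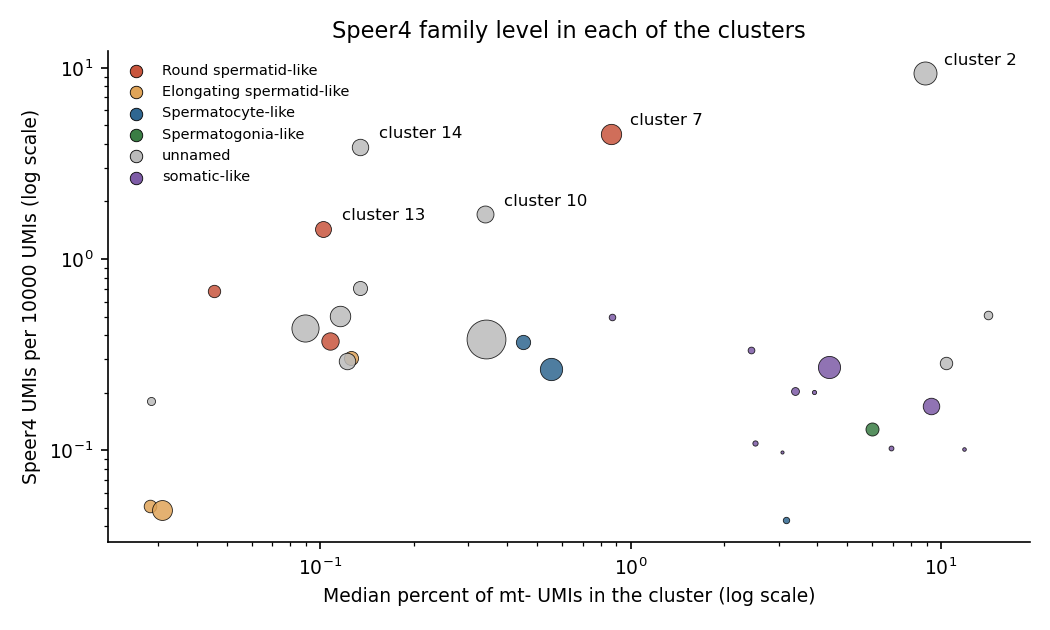
Speer4 family level in each of 32 clusters (points, pooled over 6 libraries; area in proportion to the number of barcodes) against the cluster's median percent of mt- UMIs, both on log scales, coloured by marker-based class. Cluster 2 lies at 9.38 UMIs per 10000 and a median mt- share of 8.92%, while clusters 7 and 14, at 4.53 and 3.87, lie at 0.863% and 0.134%.

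By class, the round-spermatid-like cells carried 1.19, 1.38 and 1.10 family UMIs per 10000 in the smoking libraries and 1.32, 1.48 and 1.22 in the control libraries. Spermatogonia-like cells, the mitotic precursors, carried 0.122 ± 0.0352 in smoking and 0.142 ± 0.0347 in control libraries (SD, n = 3 each). Spermatocyte-like cells, in meiosis, carried 0.150 ± 0.0469 in smoking and 0.196 ± 0.0545 in control libraries. Elongating-spermatid-like cells carried 0.0562 ± 0.00738 in smoking and 0.0919 ± 0.0355 in control libraries. Macrophage-like cells, which should lack the genes, showed 0.173 ± 0.0518 in smoking and 0.222 ± 0.168 in control libraries, and endothelial-like cells 0.101 ± 0.0410 in smoking and 0.125 ± 0.0433 in control libraries. Among the other somatic classes, interstitial mesenchymal-like cells showed 0.154 to 0.351 in smoking and 0.223 to 0.647 in control libraries, Leydig-like cells 0.231 ± 0.0680 in smoking and 0.169 ± 0.0506 in control libraries, and peritubular-like cells 0.120 ± 0.111 in smoking and 0.261 ± 0.266 in control libraries. Sertoli-like cells, with 311 family UMIs, showed 0.205 pooled over libraries. The levels in spermatogonia-, spermatocyte- and elongating-spermatid-like cells did not exceed those spanned by the somatic classes. The highest somatic values were in interstitial mesenchymal- and peritubular-like cells, with 37 and 9 family UMIs in all. With each barcode thinned to 1500 UMIs, pooled levels in these germ-cell classes were 0.143, 0.329 and 0.120, in that order. The somatic classes then ran from 0.0833 (endothelial-like) to 0.361 (Leydig-like). Whether the germ-cell levels are background was not tested. The named classes leave out clusters 2, 14 and 10.

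Detection per barcode gave the same picture. After each barcode was thinned to 1500 UMIs, at which no barcode was lost, 70.2% of the barcodes of cluster 2 held a family UMI (95% Wilson interval 68.6% to 71.8%, counting error only). The share was 41.7% in cluster 7, 33.9% in cluster 14 and 2.81% in macrophage-like cells. Before thinning these shares were 85.9%, 66.9%, 49.5% and 7.30%, at median depths of 2731, 3300, 2649 and 4790 UMIs. Cluster 20, a deep round-spermatid-like cluster with a median of 33306 UMIs, fell from 83.8% of barcodes before thinning to 9.81% after it, with a family level of 0.675 ± 0.0844 UMIs per 10000 in smoking and 0.684 ± 0.0283 in control libraries (SD, n = 3 each). The barcode with the most family UMIs, 58, was in that cluster.

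Cluster 2 was the highest in all 6 libraries, with 11.2, 9.18 and 10.4 family UMIs per 10000 in the smoking libraries and 8.28, 8.86 and 9.19 in the control libraries. The ranges of the groups met at 9.18 in smoking 2 and 9.19 in control 3. In cluster 7 the family stood at 5.13, 5.22 and 4.89 in the smoking libraries and 3.77, 4.16 and 4.02 in the control libraries, without overlap. In cluster 14 it stood at 3.68, 3.71 and 3.68 in the smoking libraries, inside the control values of 3.31, 4.39 and 4.17. In cluster 10 all 3 smoking libraries, at 2.31, 2.19 and 2.04, lay above the control libraries, at 1.23, 1.28 and 1.74. These clusters were picked for their family level, so the differences within them were not tested.

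**Figure D3:**
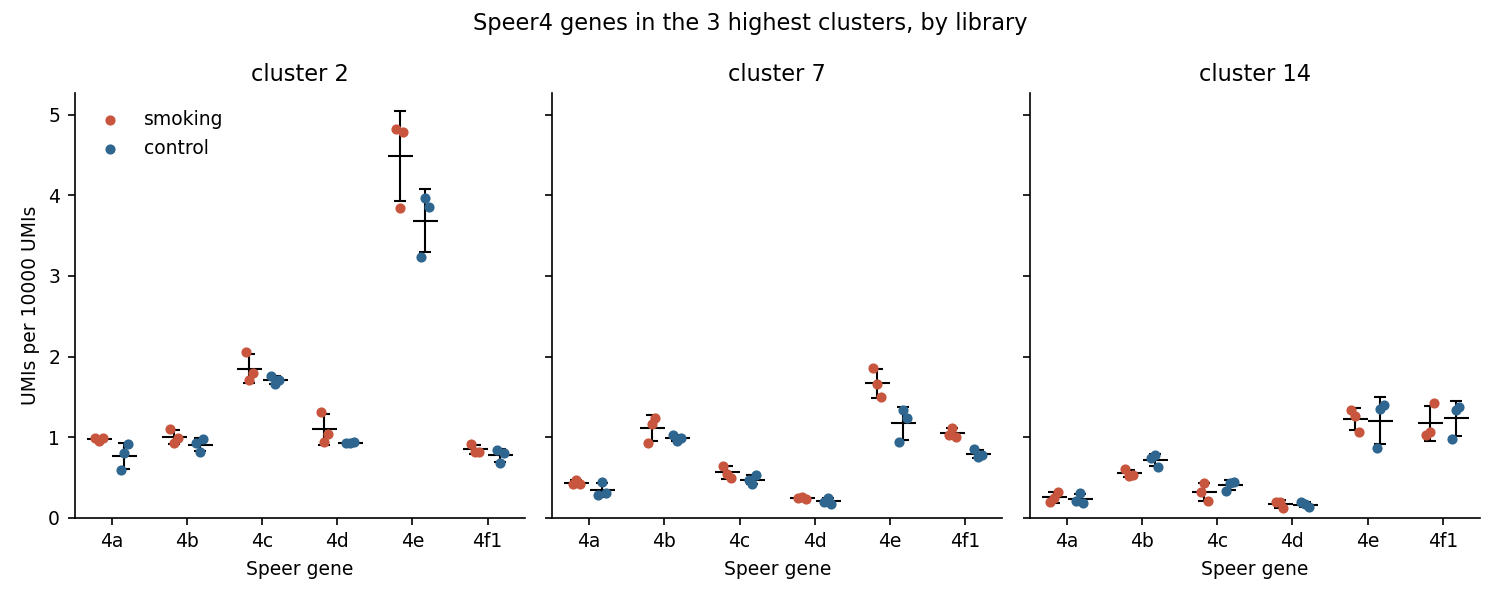
Level of each Speer4 gene, in UMIs per 10000 UMIs, in clusters 2, 7 and 14, with 1 point per library (smoking left, control right in each pair) and the mean ± SD as black bars. Speer4e reaches 4.48 in smoking and 3.68 in control libraries in cluster 2, whereas Speer4f1 is no lower in cluster 14 than in cluster 2.

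The genes did not share one profile over these clusters. Speer4d was 5.77 times as high in cluster 2 as in cluster 14, Speer4c 4.54 times, Speer4a 3.60 times and Speer4e 3.28 times. Speer4b was only 1.44 times as high. Speer4f1 ran the other way, with a ratio of 0.671 that lay between 0.508 and 0.894 in the 6 libraries. Against cluster 7, the pooled ratio was 0.897 for Speer4b, with 0.790 to 1.18 over the 6 libraries and a value above 1 in smoking 1, and 0.871 for Speer4f1, with 0.732 to 1.02 and a value above 1 in control 3, while Speer4d and Speer4c had pooled ratios of 4.41 and 3.39.

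Speer4e stood at 4.82, 3.84 and 4.79 UMIs per 10000 in cluster 2 of the smoking libraries, and at 3.24, 3.96 and 3.85 in the control libraries. In cluster 14 it stood at 1.33, 1.26 and 1.07 in the smoking libraries, and at 0.869, 1.35 and 1.40 in the control libraries. Every cluster 2 value of Speer4e thus exceeded every cluster 14 value. Speer4f1 stood at 0.916, 0.819 and 0.811 in cluster 2 of the smoking libraries and at 0.845, 0.681 and 0.798 in that of the control libraries. In cluster 14 Speer4f1 stood at 1.02, 1.06 and 1.42 in the smoking libraries and at 0.976, 1.34 and 1.38 in the control libraries. Each Speer4f1 value in cluster 14 exceeded each value in cluster 2.

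Speer4c, the second highest in cluster 2, held 2.06, 1.71 and 1.79 UMIs per 10000 there in the smoking libraries and 1.76, 1.66 and 1.71 in the control libraries. Speer4b stood in cluster 7 at 0.929, 1.17 and 1.24 in the smoking libraries and 1.02, 0.959 and 0.989 in the control libraries. As a share of the family's UMIs, Speer4f1 made up 8.53% in cluster 2, 20.3% in cluster 7 and 30.8% in cluster 14. Speer4c made up 18.8%, 11.5% and 10.0% in the same clusters, and Speer4e 43.0%, 31.4% and 31.7%. In cluster 13 Speer4f1 was the highest of the 6 genes, at 0.835, 0.713 and 0.611 UMIs per 10000 in the smoking libraries and 0.502, 0.465 and 0.653 in the control libraries. Speer4f1's neighbour Speer4f2, which matches it at 96.3% identity, also stood higher in cluster 14 (1.16 ± 0.188 in smoking, 1.10 ± 0.222 in control libraries) than in cluster 2 (0.952 ± 0.131 in smoking, 0.765 ± 0.0588 in control libraries; SD, n = 3 each).

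Over the 32 clusters, which share libraries and differ in depth, Pearson r between pairs of the 6 genes on log2(CPM + 10) was 0.758 to 0.967 with a median of 0.919. The highest was for Speer4c with Speer4e, and the lowest for Speer4d with Speer4f1.

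Among barcodes under 4000 UMIs the family's level was highest at the highest mt- share, but it did not climb evenly. Pooled over libraries it was 0.864 per 10000 under 0.2%, 1.09 from 0.2% to 0.5% and 1.16 from 0.5% to 1%. It was then 1.33 from 1% to 2%, 1.30 from 2% to 5% and 2.72 from 5% to 20%. In smoking 2 the level fell from 1.18 at 0.2% to 0.5% to 1.05 at 2% to 5%. In the band under 0.2% mt- UMIs it was 0.856, 0.764 and 0.726 per 10000 in the smoking libraries and 0.862, 0.973 and 1.05 in the control libraries. From 2% to 5% it was 1.17, 1.05 and 1.61 in the smoking libraries and 1.34, 1.14 and 1.62 in the control libraries. From 5% to 20% it was 2.36, 1.95 and 3.86 in the smoking libraries and 2.20, 3.08 and 2.99 in the control libraries. The ratio of that highest band to the lowest was 2.75, 2.55 and 5.31 in the smoking libraries and 2.56, 3.17 and 2.86 in the control libraries, so the groups overlapped and smoking 3 stood apart; the mean smoking ratio without it was 2.65.

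The ratio differed between the genes. Speer4d had 5.88 ± 2.95 in smoking and 4.61 ± 0.986 in control libraries, and Speer4c had 5.18 ± 2.47 in smoking and 4.12 ± 0.847 in control libraries (SD, n = 3 each). Speer4e followed with 4.03 ± 2.09 in smoking and 3.44 ± 0.630 in control libraries, and Speer4a with 3.78 ± 0.655 in smoking and 3.01 ± 0.958 in control libraries. Speer4b had 2.68 ± 0.839 in smoking and 1.95 ± 0.219 in control libraries. Speer4f1 had the smallest, 1.59 ± 0.585 in smoking and 1.25 ± 0.0729 in control libraries. This order matches that of the ratios of cluster 2 to cluster 14 except for the places of Speer4a and Speer4e. All 6 genes were higher in the upper band in each of the 6 libraries, beside 17.6% of the 7637 genes with at least 1000 UMIs, and the genes were chosen for this relation.

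The high level from 5% to 20% mt- UMIs coincided with cluster 2. That cluster made up 22.7% of the barcodes at 5% to 20% mt- UMIs and 1.63% of those under 0.2%. With cluster 2 left out, the ratio for the family was 1.01, 0.861 and 1.39 in the smoking libraries and 0.867, 0.957 and 0.919 in the control libraries. Without cluster 2 the level still stood higher from 2% to 5% than under 0.2% in all 6 libraries. It was 0.930, 0.832 and 1.16 there in the smoking libraries, against 0.686, 0.628 and 0.631 under 0.2%. In the control libraries it was 0.882, 0.793 and 1.13, against 0.649, 0.791 and 0.821. Inside cluster 2 the ratio of the 5% to 20% band to that under 0.2% was 0.816, 0.865 and 0.911 in the smoking libraries. In the control libraries it was 0.719, 0.823 and 0.727, so it was below 1 in all 6. These ratios count mt- UMIs in the denominator, which by itself lowers levels at a high mt- share. Inside cluster 2 the ratio was not computed without mt- UMIs, so a lower level there was not separated from that effect. Inside cluster 7 the ratio stayed above 1, at 3.04, 2.19 and 1.95 in the smoking libraries and 6.20, 2.68 and 2.82 in the control libraries. Inside cluster 14, where 36 barcodes lay at 5% to 20%, the pooled level in that band was 2.88 UMIs per 10000, beside 3.12 under 0.2%. The high band was the lower one in 4 of 6 libraries, smoking 1, smoking 3, control 2 and control 3.

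How far the relation rests on cluster 2 depended on the clustering, in which 8 of the sequence relatives were among the variable genes. When these were also left out, the highest cluster was smaller (2170 barcodes) and the ratio outside it was 1.85, 1.36 and 3.19 in the smoking libraries and 1.30, 1.59 and 1.71 in the control libraries. This setting was added after the data had been seen. Inside the highest cluster the mean ratio, with mt- UMIs in the denominator, was again below 1, at 0.923 ± 0.0706 in smoking and 0.781 ± 0.134 in control libraries (SD, n = 3 each).

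**Figure D4:**
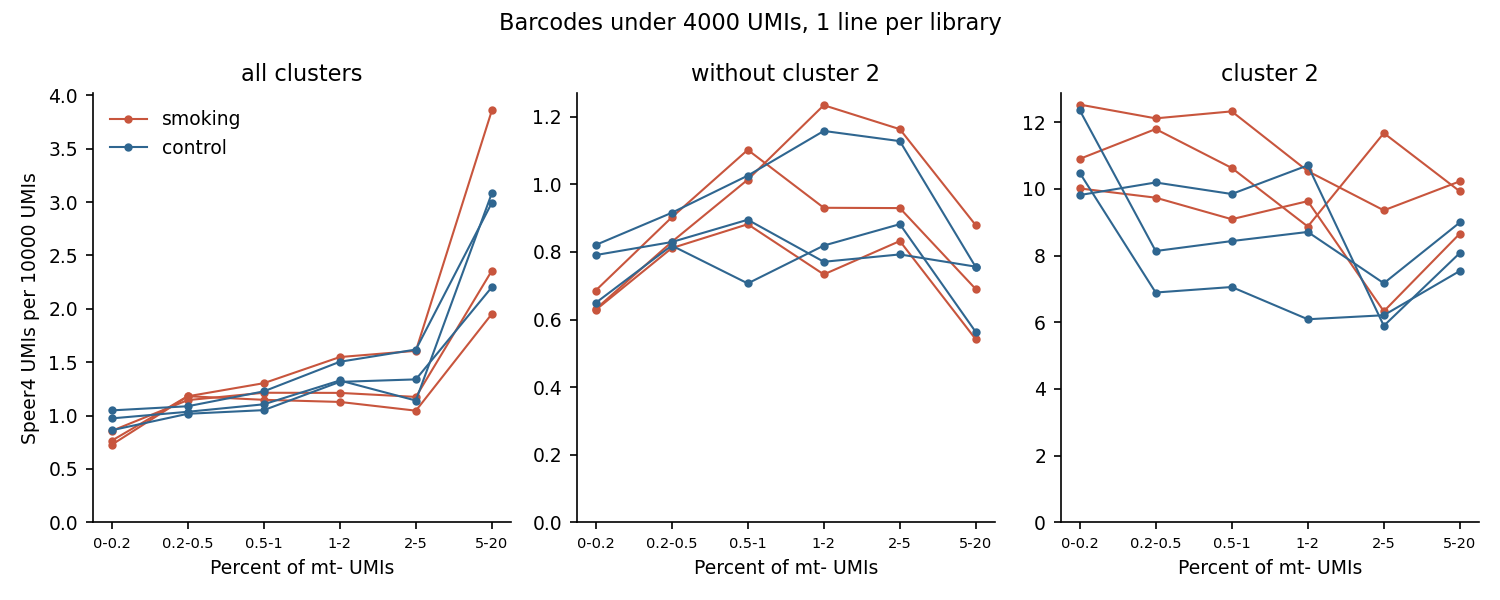
Speer4 family level (UMIs per 10000 UMIs) by percent of mt- UMIs among barcodes under 4000 UMIs, with 1 line per library, for all clusters, without cluster 2 and within cluster 2; the vertical scales differ. Over all clusters the band from 5% to 20% reaches 1.95 to 3.86 in the smoking libraries and 2.20 to 3.08 in the control libraries, whereas in the other panels that band is the highest in no library.

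The relatives showed the relation too. The 18 genes summed gave a ratio of 4.32 ± 2.10 in smoking and 3.64 ± 0.374 in control libraries. Of the other Speer genes, Speer4f2 gave 1.48 ± 0.710 in smoking and 1.35 ± 0.255 in control libraries, and Speer3 1.30 ± 0.497 in smoking and 1.23 ± 0.131 in control libraries. Speer2, on chromosome 16, gave 0.939 ± 0.0546 in smoking and 1.05 ± 0.0101 in control libraries (SD, n = 3 each throughout). The 15 round spermatid genes listed for comparison had a median log2 ratio of -0.31 and the 16 condensing spermatid transcripts one of -0.24, beside -0.13 over the 7637 genes.

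Between the groups, the family's level over all retained barcodes was 0.728, 0.726 and 0.672 UMIs per 10000 in the smoking libraries and 0.921, 1.14 and 0.851 in the control libraries. All 3 smoking libraries lay below all 3 control libraries, for the family and for each of the 6 genes, as did 20.1% of 18827 genes tested. Among barcodes under 4000 UMIs the family stood at 1.29, 1.22 and 1.65 in the smoking libraries and 1.28, 1.47 and 1.63 in the control libraries, and the groups overlapped. Among barcodes with 4000 UMIs or more it stood at 0.490, 0.521 and 0.409 in the smoking libraries and 0.626, 0.808 and 0.504 in the control libraries. In sums over barcodes, fewer cells of a type and less RNA per cell cannot be told apart, and the share of UMIs in elongating-spermatid-like barcodes, which hold few Speer4 UMIs, was higher in each smoking library than in each control library; its part in the difference was not tested.

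**Figure D5:**
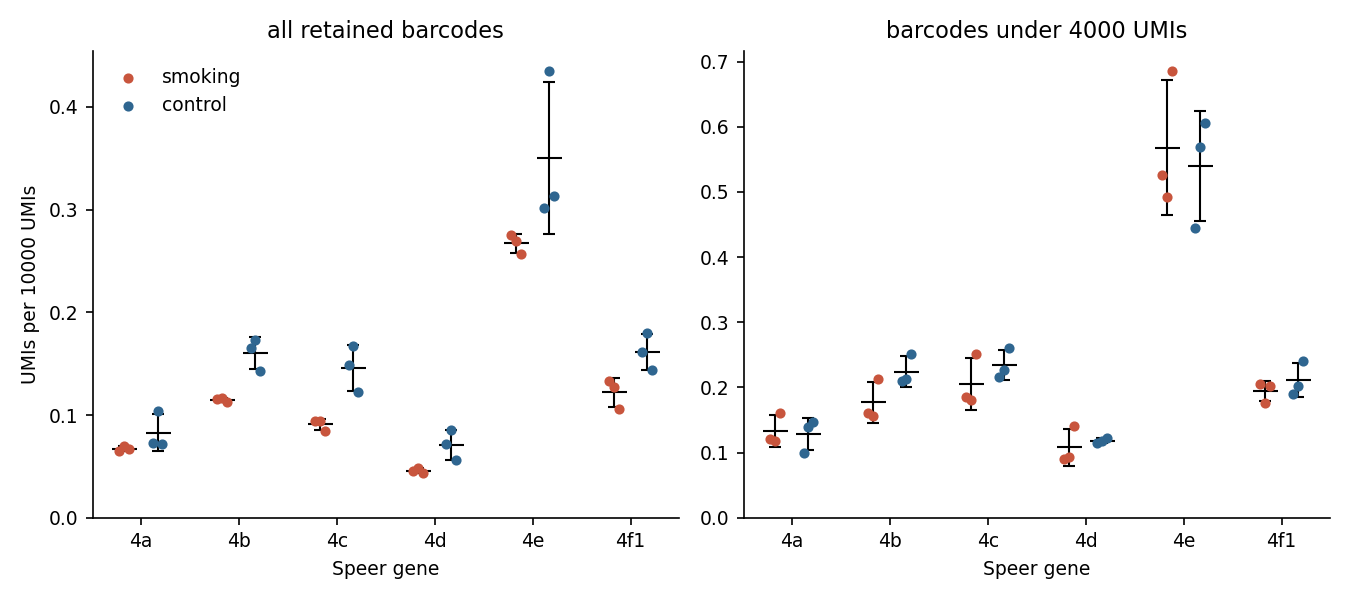
Level of each Speer4 gene in UMIs per 10000 UMIs, over all retained barcodes (first panel) and barcodes under 4000 UMIs (second panel), with 1 point per library, smoking left and control right in each pair, and the mean ± SD as black bars. Over all barcodes each gene's smoking points lie below its control points, and among barcodes under 4000 UMIs the Speer4e means are 0.568 in smoking and 0.540 in control libraries.

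No Speer4 gene was called between the groups by edgeR's quasi-likelihood test at an adjusted p under 0.05, where 0 of 18827 genes passed (0.0% called; 2084 genes had an unadjusted p under 0.05, and DESeq2 called 47). All 6 log2 fold changes of smoking over control were below 0, with a median of -0.25 beside -0.02 over all genes tested. Speer4c stood at 0.0938, 0.0940 and 0.0848 UMIs per 10000 in the smoking libraries and 0.148, 0.167 and 0.122 in the control libraries, without overlap. Its edgeR log2 fold change was the furthest from 0, -0.48 ± 0.11 (SE), with an unadjusted p of 0.00195 and an adjusted p of 0.432. Speer4d stood at 0.0456, 0.0489 and 0.0434 in the smoking libraries and 0.0716, 0.0855 and 0.0562 in the control libraries, with an edgeR log2 fold change of -0.43 ± 0.15 and an adjusted p of 0.432. Speer4b stood at 0.115, 0.116 and 0.113 in the smoking libraries and 0.165, 0.173 and 0.143 in the control libraries, with an edgeR log2 fold change of -0.28 ± 0.10 and an adjusted p of 0.432. The edgeR log2 fold changes of Speer4f1, Speer4e and Speer4a were -0.21, -0.19 and -0.10, with adjusted p of 0.479, 0.618 and 0.841. The 18 relatives had a median log2 fold change of -0.30, with 17 of 18 below 0 and none called. The 6 other Speer genes had a median of -0.13, with 4 of 6 below 0 and none called.

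Within round-spermatid-like cells, 0 of 13687 genes passed the edgeR test (0.0% called; 1590 genes at an unadjusted p under 0.05, and DESeq2 called 26), and all 6 Speer4 genes were tested. The log2 fold changes of smoking over control ran from -0.36 ± 0.15 (SE) for Speer4c, with an edgeR adjusted p of 0.416, to 0.16 ± 0.17 for Speer4a, with one of 0.688. Within spermatocyte-like cells 3 of the 6 genes, Speer4b, Speer4c and Speer4e, passed the filter on low counts, and none was called by edgeR (adjusted p of 0.334, 0.330 and 0.896), beside 14.7% of 11466 genes called. DESeq2 gave an adjusted p for Speer4e alone, 0.964. That background is unstable, since the 1689 genes called became 8 without control 1 and 1 with all deposited barcodes. Speer4b there was called without smoking 2, at an edgeR log2 fold change of -1.47 and an adjusted p of 0.0473.

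Within elongating-spermatid-like cells 4 genes were tested, with edgeR log2 fold changes of -0.80 (Speer4b), -0.70 (Speer4c), -0.22 (Speer4e) and -0.06 (Speer4f1) and adjusted p of 0.227 to 0.949. None was called, beside 0.12% of 10841 genes, of which 2433 had an unadjusted p under 0.05. Without control 3 the number of genes called there was 2502, still with no Speer4 gene. In spermatogonia-like cells no Speer4 gene passed the filter, and 0 of 10587 genes were called (0.0%; 486 at an unadjusted p under 0.05, and 0 by DESeq2).

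The split of the family's UMIs between its members was compared with an exact two-sided permutation test over the 20 assignments of the 6 libraries, for which 0.1 is the smallest p. Speer4c made up 12.8% ± 0.173 of the family in the smoking libraries and 15.0% ± 0.947 in the control libraries (SD, n = 3 each), and every smoking library lay below every control library (exact p of 0.1, adjusted over the 6 genes 0.4). Among barcodes under 4000 UMIs the groups did not overlap for 3 genes: Speer4e was higher in smoking libraries, at 40.8%, 40.4% and 41.5% against 34.9%, 38.8% and 37.2% in control libraries. Speer4b was lower, at 12.5%, 12.9% and 12.9% in smoking libraries against 16.4%, 14.5% and 15.4% in control libraries. Speer4c was lower as well, at 14.8% ± 0.411 in smoking and 16.1% ± 0.718 in control libraries (SD, n = 3 each), and for each of the 3 the exact p was 0.1 and the adjusted p 0.2. The shares of the 6 genes make up the whole family, so these differences are not independent of each other.

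The clusters that hold much of the family differed in size between libraries. Cluster 2 made up 4.10%, 5.35% and 6.93% of the barcodes of the smoking libraries and 7.28%, 7.60% and 6.87% of those of the control libraries. Cluster 14, which has Speer4f1 and Speer4f2 among its 10 leading genes, made up 2.82%, 3.01% and 1.44% in the smoking libraries and 4.01%, 4.38% and 4.06% in the control libraries. Cluster 2 held 30.2%, 32.7% and 37.5% of the family's UMIs in the smoking libraries and 40.8%, 40.8% and 36.5% in the control libraries.

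The genes most like the family over the 32 clusters, by Pearson r on log2(CPM + 10), were led by relatives that neighbour the members within 100 kb. These were Gm10354 (r of 0.977), Gm17019 (0.973), Gm21190 (0.972) and Gm9758 (0.953). Gm21190 held more UMIs than any Speer4 gene, 15248, and stood at 8.39 UMIs per 10000 in cluster 2. The remaining 6 of the 10, with r from 0.930 to 0.941, were Gm5591, Zfp72, Iqca, 4932415M13Rik, 4933421I07Rik and 4930449I24Rik, none of them a sequence relative or a neighbour. The number of relatives among the 10 was 3 by Spearman's rho and 1 with clusters at resolution 2. Zfp72 encodes a zinc finger protein and Iqca an IQ-motif protein.

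Of the other Speer genes, Speer1 stood out by library. It had 106, 0 and 144 UMIs in the smoking libraries and 67, 83 and 1 in the control libraries, so that smoking 2 had none and control 3 had 1. With 0 UMIs, the level in smoking 2 is limited to 0.000537 UMIs per 10000 (3 counts over the library's total), against 0.0222 in smoking 1. Speer2 stood at 0.728, 0.638 and 0.662 UMIs per 10000 in the smoking libraries and 0.690, 0.823 and 0.587 in the control libraries, which overlap. No Speer4 gene showed a library without counts.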

How the data were processed

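The deposited matrices hold raw UMI counts per gene and barcode, already limited to called cells by the authors. Per the file headers they come from Cell Ranger 3.1.0. Per the submitters' processing notes, build mm10, CASAVA 1.8 and Cell Ranger in version 7.1.0 were used. How reads that fit several gene copies were handled: not given in the sources used here. Speer4 genes and all lists were chosen with earlier results of these data known. Barcodes with at least 500 UMIs and 300 genes, at most 20% mt- UMIs and no doublet call were kept (2459 removed for mt-, 3935 as doublets scored against simulated pairs over 50 neighbours). Clusters came from 2000 variable genes without Speer, mt- and ribosomal genes, 30 principal components, 20 neighbours and Leiden resolution 1 (scanpy 1.11.5, leidenalg 0.10.2), and were named "like" a type from at least 3 markers. Counts summed per library were tested with edgeR 4.0.16 (TMM, low-count filter, quasi-likelihood, Benjamini-Hochberg over all genes tested), with DESeq2 1.42.0 as an alternative. On simulated counts of 18857 genes, 94.5% of 200 genes with a fold of 2 were recovered. The simulation gave every gene the same fixed dispersion and the libraries no difference in cell composition. It checks that the code runs correctly and does not give the power in these data. Named genes are the members, every other Speer gene, neighbours within 100 kb and the 10 genes most like the family with at least 500 UMIs. Sequence relatives were found with blastn 2.17.0 on GENCODE transcripts. Protein sequences were not used here. UMI totals per library limit precision, and intervals and floors cover counting error only. The promoter motif and the settings without cluster 2 or without sequence relatives were added after seeing the data.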

Additional observations from a re-analysis of the deposited data

How the results depend on the processing

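Of 188 recomputed log2 fold changes of the tested Speer4 genes that had an adjusted p, 174 kept direction and call, 13 changed sign and 1 became a call; the cause of these changes was not tested. Speer4e read 0.0744 at resolution 2 in spermatocyte-like and 0.0365 with all deposited barcodes in round-spermatid-like cells. Leaving out 1 library at a time gave -0.22 to 0.0759 for Speer4a over all barcodes, -0.22 to 0.26 for Speer4e in spermatocyte-like cells, -0.13 to 0.11 for Speer4e and -0.14 to 0.0749 for Speer4f1 in round-spermatid-like cells, and -0.58 to 0.0565 for Speer4e and -0.35 to 0.18 for Speer4f1 in elongating-spermatid-like cells. The number of Speer4 genes called was 0 to 1 in spermatocyte-like cells when 1 library was left out, and 0 in the other sums. DESeq2 gave no adjusted p in 15 further cases: the 6 genes over all barcodes, Speer4b and Speer4c in spermatocyte-like cells, Speer4a, Speer4c and Speer4d in round-spermatid-like cells and the 4 genes tested in elongating-spermatid-like cells.

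Numbers of genes called over the whole table moved more. Over all barcodes they were 47 with DESeq2, 1 without a filter and 0 to 6 with a library left out. In spermatogonia-like cells they were 25 without a filter, 8 with all deposited barcodes and 0 to 7 with a library left out. In spermatocyte-like cells they were 1 with all deposited barcodes, 1035 at resolution 2 and 8 to 2199 with a library left out. In round-spermatid-like cells they were 26 with DESeq2, 328 without a filter and 0 to 8 with a library left out. In elongating-spermatid-like cells they were 292 with DESeq2, 397 without a filter and 1 to 2502 with a library left out.

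The mean mt- ratio of the family without cluster 2 was 1.09 in smoking and 0.914 in control libraries, and within it 0.864 in smoking and 0.757 in control libraries; within cluster 7 it was 3.90 in control libraries. With relatives left out of the variable genes it was 1.53 outside the highest cluster in control libraries, and 0.923 in smoking and 0.781 in control libraries inside it. With UMIs other than mt- as denominator it was 3.18 in control libraries. Leaving out 1 library gave 2.65 to 4.03 for smoking and 2.71 to 3.01 for control libraries.

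Family levels in UMIs per 10000 moved for round-spermatid-like cells to 1.59 in smoking and 1.94 in control libraries at resolution 2, to 1.46 in smoking and 1.61 in control libraries with relatives left out of the variable genes, and to 2.09 in smoking and 1.92 in control libraries after thinning. Thinning, which gives each barcode equal weight, also gave 0.326 in smoking and 0.333 in control libraries for spermatocyte-like cells, 0.0877 in smoking and 0.202 in control libraries for elongating-spermatid-like cells and 0.159 in smoking libraries for spermatogonia-like cells. The highest cluster reached 9.49 in control libraries with relatives left out. The Speer4f1 share of the family, smoking minus control, read -0.294 percentage points under 4000 UMIs and -0.0165 to 1.23 with a library left out, and that of Speer4b -1.15 to 0.233. Of the 10 most alike genes, 5 were shared with Spearman's rho and 6 at resolution 2. No paired analysis was possible because the labels give no numbers shared between groups.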
